A study of Mus musculus with 12 samples.

Results

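The genes described here are 10 genes that mark precursors of B cells: Vpreb1, Vpreb3, Igll1, Rag1, Rag2, Ighm, Cd79a, Cd79b, Ebf1 and Pax5. They are a list of names, matched to the 17362 genes of a table of RNA levels, and all 10 are in it. The RNA came from cells sorted as endothelial, the cells that line blood vessels. They were sorted from the marrow of untreated B6 mice, an inbred laboratory strain, after tibia, femur and iliac bone had been crushed. The 4 sorted populations had 3 libraries each, described by the labels as biological triplicates made with 6 mice, whose age is not given. The first population, called CD200-high here, was gated as CD200Hi, Sca1+, CD31+, EMCN- and CD45-. The second, type H vessels, was gated as EMCN+, Sca1+, CD31+ and CD45-. The third, labelled as other arterial cells, was gated as CD45-, CD31+, Sca1+ and CD200-. The fourth, labelled sinusoidal, was gated as Sca1+, CD31+ and CD45-. All 4 populations thus share the gates for CD31, a surface protein of endothelium, for Sca1, and against CD45, a surface protein of blood cells. The labels do not say how many animals went into each library.

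A B cell starts in the bone marrow as a progenitor in which the transcription factor Ebf1, and then Pax5, switch on the B lineage genes. Rag1 and Rag2 form the enzyme that cuts immunoglobulin genes so that their segments can be joined, and a successfully joined heavy chain, encoded by Ighm, is carried to the surface with a surrogate light chain made of the Vpreb1 and Igll1 proteins. Cd79a and Cd79b form the signalling pair of this pre-B cell receptor, and the surrogate light chain genes and the Rag genes are shut off again as the cell matures. These genes are known as genes of B lineage cells rather than of endothelium, apart from Ebf1, which stromal cells of the marrow also use, and precursor B cells are themselves known to carry CD45.

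Listed reads per library ranged from 7.33 to 21.6 M (M, 1e6 reads). Levels are given as log2 CPM, counts per 1e6 reads on a log2 scale, and a difference of 1 is a doubling. Transcripts of the sorting antigens and of 16 pan-endothelial genes did not follow the gates evenly. Ly6a, which encodes Sca1, stood at 4.05 ± 0.71 log2 CPM in the libraries labelled sinusoidal, against 9.78 ± 0.13 in arterial, 8.92 ± 0.39 in type H and 10.19 ± 0.35 in CD200-high (SD, n = 3). Cdh5, an adhesion gene that defines endothelium, stood at -0.47 ± 0.95, 7.29 ± 0.22, 8.38 ± 0.15 and 7.76 ± 0.65 in the same order. The summed pan-endothelial level was 243 to 258 CPM in the libraries labelled sinusoidal, against 1824 to 2420 in arterial, 3662 to 6499 in CD200-high and 9660 to 10670 in type H libraries. Of the 16 genes, 15 were called lower in the libraries labelled sinusoidal than in each other population. The exception was Erg, which averaged highest there, at 4.39 ± 0.15 log2 CPM, with 3.70 ± 0.08 in type H, 2.89 ± 0.75 in arterial and 2.07 ± 1.05 in CD200-high libraries. The fourth population is called by its label throughout. In bulk RNA, fewer cells of a type and less RNA per cell cannot be told apart.

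The B cell precursor genes were highest in the libraries labelled sinusoidal, intermediate in arterial libraries and lowest in CD200-high and type H libraries. Summed over the 10 genes they took 1.29 ± 0.0874% of the listed reads in the libraries labelled sinusoidal, 0.297 ± 0.150% in arterial, 0.0262 ± 0.00625% in CD200-high and 0.0158 ± 0.00448% in type H (SD, n = 3). All 10 genes passed the filter on low values, which 17086 genes passed. Rag1, Rag2 and Pax5 passed it through the arterial libraries and those labelled sinusoidal, so counts over the genes are a description. In type H all 10 were lower than in the libraries labelled sinusoidal by limma's test (adjusted p under 0.05), where 14.6% of all genes tested were lower. Against arterial libraries, all 10 were again lower in type H, where 12.7% of all genes were. CD200-high gave 10 of 10 lower against the libraries labelled sinusoidal, where 14.6% of all genes were, and 9 of 10 lower against arterial libraries, where 8.15% were. The exception was Pax5. Between CD200-high and type H, 2 of 10 were higher in CD200-high, Ebf1 and Ighm, where 6.66% of all genes were. Between arterial libraries and those labelled sinusoidal, 4 of 10 were lower in arterial, Vpreb3, Ighm, Cd79b and Ebf1, where 2.14% of all genes were. When only the 6 libraries of the populations compared were fitted, so that those labelled sinusoidal took no part, 10 genes were lower in type H than in arterial, where 11.2% of all genes were, and 8 in CD200-high (Rag2 no longer passed), where 6.1% of all genes were. Between CD200-high and type H that fit called 0 of the 10, with 3 at an unadjusted p under 0.05, where 3.99% of all genes were higher in CD200-high. With only arterial libraries and those labelled sinusoidal, 10 of 10 were lower in arterial, where 5.54% of all genes were.

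**Figure D1:**
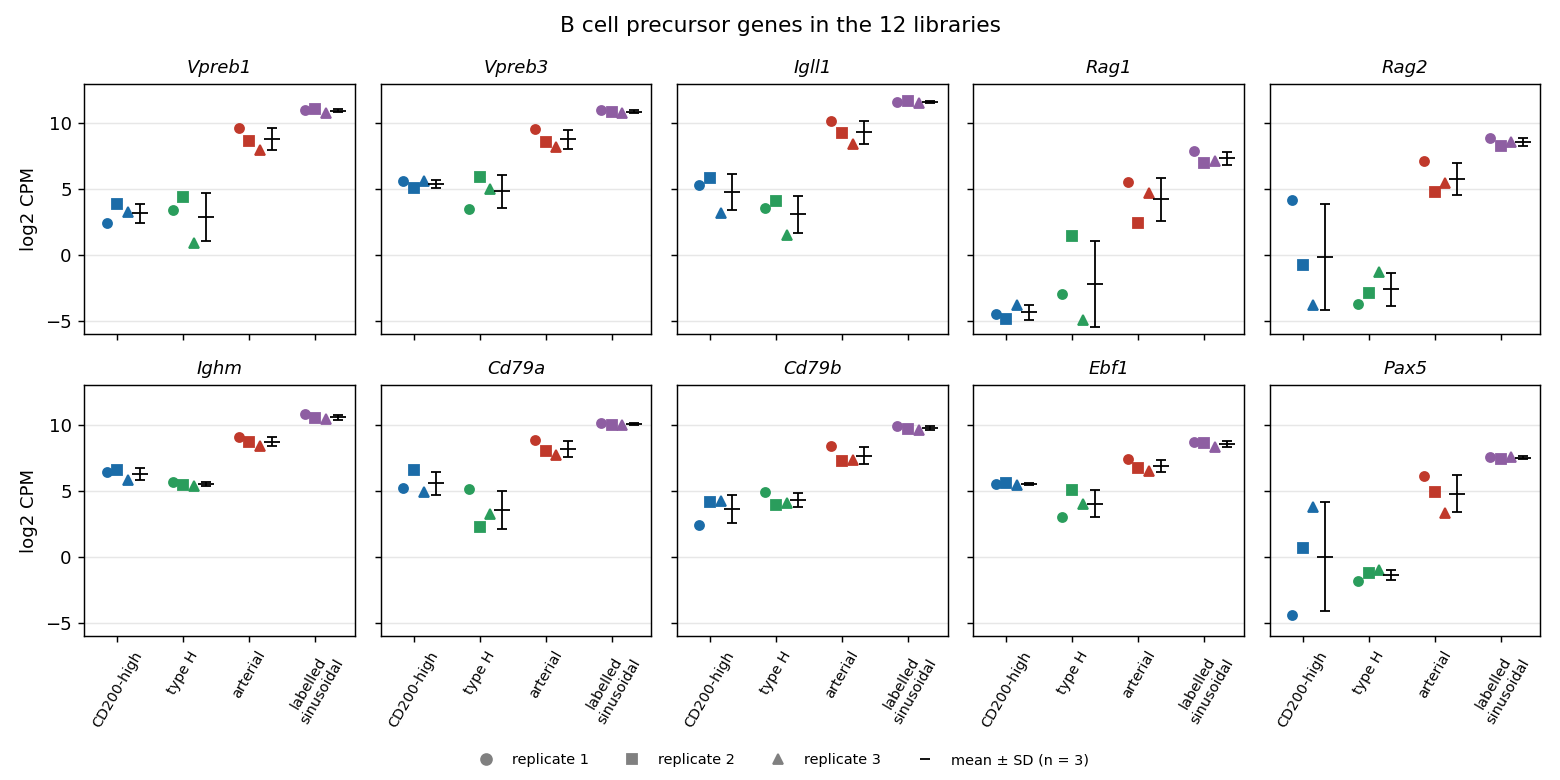
Levels of the 10 B cell precursor genes in log2 CPM (vertical axis) in the 12 libraries, grouped by population, with one panel per gene; symbols give the replicate and the black bar the mean ± SD of 3 libraries. In every panel the 3 libraries labelled sinusoidal lie above the 3 arterial ones, and the lowest points, of Rag1, Rag2 and Pax5, are libraries with 0 or a few reads, where the added 0.5 read sets much of the value.

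The surrogate light chain genes had a steep step between populations. Vpreb1, which encodes its variable-like part, stood at 10.97, 11.07 and 10.80 log2 CPM in the libraries labelled sinusoidal (replicates 1, 2 and 3), at 9.67, 8.68 and 7.99 in arterial, at 2.41, 3.87 and 3.25 in CD200-high and at 3.42, 4.41 and 0.88 in type H libraries. The arterial libraries lay below all those labelled sinusoidal and above all others, and CD200-high and type H overlapped. Vpreb1 was lower by 7.77 ± 0.74 log2 in CD200-high than in the libraries labelled sinusoidal (SE, adjusted p = 1.81e-05), a 218-fold difference, and by 8.04 ± 0.74 in type H (adjusted p = 1.00e-05). Against arterial libraries the falls were 5.60 ± 0.74 in CD200-high (adjusted p = 0.00086) and 5.87 ± 0.74 in type H (adjusted p = 0.000256). The arterial difference from the libraries labelled sinusoidal, -2.17 ± 0.74, did not pass (adjusted p = 0.0947), and passed without type H replicate 2 or 3 (adjusted p = 0.047 and 0.0129).

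Vpreb1 has a near copy, Vpreb2, on the same chromosome, and both can pair with the Igll1 protein. Their spliced transcripts in GENCODE M21 are 766 and 759 bases long and are 97.4% identical over 759 aligned bases, with 20 differences, of which 9 lie in the 429 coding bases. Of the 617 stretches of 150 bases, the read length, in the Vpreb1 transcript, 47 (7.62%) also occur in Vpreb2, so reads of the rest can in principle be told apart, though the authors' treatment of shared reads is not given in the sources used here. The stretch of 60 bases with the most differences, coding bases 328 to 387, shows how alike the copies are, with the 5 differing bases in capitals.
Vpreb1: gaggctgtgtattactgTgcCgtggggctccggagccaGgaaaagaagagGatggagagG
Vpreb2: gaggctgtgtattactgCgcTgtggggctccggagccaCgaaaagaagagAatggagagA
Vpreb2 stood at 8.14, 8.67 and 8.41 log2 CPM in the libraries labelled sinusoidal, at 6.75, 6.08 and 5.06 in arterial, at -1.27, -1.68 and -1.44 in CD200-high and at -0.24, -0.31 and -1.25 in type H libraries. As for Vpreb1, the arterial libraries lay below those labelled sinusoidal and above all others. Unlike Vpreb1, whose CD200-high and type H libraries overlapped, each type H library lay above each CD200-high one, on few reads. Vpreb1 had 5.68 reads for each Vpreb2 read in the libraries labelled sinusoidal (5.25 to 7.09 by library) and 7.06 in arterial (6.06 to 7.60), ranges that overlap. Across the CD200-high and type H libraries, Vpreb2 had 10 and 36 reads in all.

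Igll1, which encodes the constant-like part of the surrogate light chain, reached 11.63, 11.70 and 11.52 log2 CPM in the libraries labelled sinusoidal. It stood at 10.16, 9.28 and 8.46 in arterial, at 5.32, 5.83 and 3.23 in CD200-high and at 3.61, 4.11 and 1.52 in type H libraries. CD200-high replicate 3 and type H replicate 3 were the lowest of their populations, and the 2 populations overlapped. Igll1 was lower by 6.82 ± 0.73 log2 in CD200-high (adjusted p = 4.16e-05) and by 8.53 ± 0.73 in type H (adjusted p = 5.99e-06) than in the libraries labelled sinusoidal. The arterial difference of -2.31 ± 0.73 did not pass (adjusted p = 0.0708), but passed with the replicate number as a block (adjusted p = 0.012) and without CD200-high replicate 3 or type H replicate 3 (0.0325 and 0.0333). Its CD200-high difference from type H, 1.71 ± 0.73, did not pass either (adjusted p = 0.159), and passed with the block (adjusted p = 0.0407), at the same pan-endothelial median (0.0403) and without CD200-high replicate 3 (0.0325).

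Vpreb1 and Igll1 are neighbouring coding genes on chromosome 16 in RefSeq's table, which is why their promoters are shown side by side. RefSeq (GRCm38.p6) gave promoters for 8 of the 10 genes, and Ighm and Cd79b were not matched. Each window is the 250 bases before the start, read 5′ to 3′ on the strand of the gene, with capitals marking E-boxes, the letters CANNTG that basic helix-loop-helix factors such as E2A can bind.
Vpreb1, chr16:16869256-16869505, minus strand: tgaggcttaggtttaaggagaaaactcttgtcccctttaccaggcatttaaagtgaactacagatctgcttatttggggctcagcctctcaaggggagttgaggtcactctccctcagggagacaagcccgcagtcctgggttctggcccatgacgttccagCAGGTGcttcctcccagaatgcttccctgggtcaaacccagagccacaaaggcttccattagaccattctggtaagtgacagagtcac
Igll1, chr16:16863986-16864235, minus strand: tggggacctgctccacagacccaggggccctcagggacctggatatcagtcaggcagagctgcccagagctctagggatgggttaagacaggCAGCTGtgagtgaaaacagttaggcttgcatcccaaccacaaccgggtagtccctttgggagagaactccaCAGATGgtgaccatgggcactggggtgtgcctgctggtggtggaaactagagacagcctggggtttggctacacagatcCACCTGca
On either strand, CANNTG was found in 8 of the 9 windows of these 8 genes, against 66.2% of 32851 promoter windows of the same length. Ebf1 has 2 windows, of which 1 held none. The narrower CAGCTG, itself a CANNTG, was in 2 of the 9, those of Igll1 and Rag1, against 13% of all windows. TCCC and GGGA parted by any 2 bases, the letters commonly given for EBF factors, were in 0 of the 9 and in 0.779% of all windows, and TATAA in 0 of the 9 and 22.8% of all. These are matches of letters, and the deposited table holds no measurement of binding.

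Vpreb3, whose product is found with the pre-B cell receptor inside the cell, was 11.01, 10.87 and 10.76 log2 CPM in the libraries labelled sinusoidal, 9.58, 8.57 and 8.18 in arterial, 5.61, 5.06 and 5.58 in CD200-high and 3.52, 5.94 and 5.01 in type H libraries. Its arterial libraries again stood alone between the higher group and the 2 lower ones, which overlapped. Vpreb3 fell by 2.10 ± 0.51 log2 from the libraries labelled sinusoidal to arterial (adjusted p = 0.0213), by 5.47 ± 0.51 to CD200-high (44.2-fold, adjusted p = 1.52e-05) and by 6.06 ± 0.51 to type H (66.5-fold, adjusted p = 5.07e-06). The arterial call was lost when any 1 of arterial replicates 2 and 3 or of the 3 libraries labelled sinusoidal was left out, with adjusted p from 0.0512 to 0.0983.

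The recombinase genes were read little or not at all in CD200-high and type H. Rag1 had 0 reads in the 3 CD200-high libraries and 2, 48 and 0 reads in the type H libraries, against 802, 87 and 241 reads in arterial and 4216, 3070 and 2929 in those labelled sinusoidal. On the log2 CPM scale Rag1 stood at 5.58, 2.44 and 4.68 in arterial and at 7.88, 6.96 and 7.16 in the libraries labelled sinusoidal. Type H replicate 2 held 48 of the 50 type H reads and reached 1.43 log2 CPM, still below each arterial library. Taking 3 reads per library as the floor that a count of 0 allows, Rag1 was at least 546-fold lower in CD200-high than in the libraries labelled sinusoidal (adjusted p = 0.00013) and at least 63.7-fold lower than in arterial libraries (adjusted p = 0.00308). In type H it was lower than in arterial by 6.40 ± 1.46 log2 (adjusted p = 0.00942) and than in the libraries labelled sinusoidal by 9.49 ± 1.46 (adjusted p = 0.000466).

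Rag2 had 196, 8 and 0 reads in CD200-high and 1, 2 and 6 in type H libraries. It had 2349, 436 and 415 reads in arterial and 8612, 7438 and 7808 in the libraries labelled sinusoidal, which is 7.13, 4.76 and 5.47 and then 8.91, 8.23 and 8.57 log2 CPM. CD200-high replicate 1 stood apart from its 2 partners at 4.18 log2 CPM, and even it lay below each arterial library. That library had 0 Rag1 reads. Rag2 was lower in CD200-high than in arterial by 5.90 ± 1.56 log2 (adjusted p = 0.029) and than in the libraries labelled sinusoidal by 8.68 ± 1.56 (adjusted p = 0.00158). The type H differences were -8.38 ± 1.56 against arterial (adjusted p = 0.00291) and -11.17 ± 1.56 against the libraries labelled sinusoidal (adjusted p = 0.000235). The call between CD200-high and arterial was lost when CD200-high replicate 2 or 3 or any 1 arterial library was left out (adjusted p from 0.0537 to 0.109), when only these 2 populations were fitted (0.0895) and with voom weights (0.0776). Neither Rag1 nor Rag2 passed between arterial libraries and those labelled sinusoidal, at -3.10 ± 1.46 (adjusted p = 0.238) and -2.79 ± 1.56 (adjusted p = 0.327). The SE in that fit takes in the spread of the CD200-high and type H libraries, with their few reads. Both genes passed when only these 2 populations were fitted (adjusted p = 0.0244 and 0.0125) and with voom weights (0.00689 and 0.00246).

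Rag1 and Rag2 are also neighbours, on chromosome 2, and their promoters are shown because the genes act as a pair. They lie on opposite strands, with E-boxes in capitals as above.
Rag1, chr2:101649533-101649782, minus strand: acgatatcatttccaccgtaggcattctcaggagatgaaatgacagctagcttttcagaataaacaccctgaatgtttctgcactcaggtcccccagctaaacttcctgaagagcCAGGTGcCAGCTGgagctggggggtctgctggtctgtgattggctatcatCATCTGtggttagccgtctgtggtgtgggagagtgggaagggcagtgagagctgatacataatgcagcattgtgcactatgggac
Rag2, chr2:101624462-101624711, plus strand: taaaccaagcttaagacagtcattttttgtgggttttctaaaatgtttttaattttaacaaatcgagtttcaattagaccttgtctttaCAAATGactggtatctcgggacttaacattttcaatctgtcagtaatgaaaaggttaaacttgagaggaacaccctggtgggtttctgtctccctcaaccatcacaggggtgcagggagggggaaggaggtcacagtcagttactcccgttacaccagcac
The Rag1 window held 3 E-boxes and that of Rag2 held 1. The strand counted is not given in the sources used here, so reads where exons of 2 genes overlap are uncertain. In GENCODE M21 exons of B230118H07Rik cover 6.08% of the Rag2 exon length and 1.21% of that of Rag1, exons of Top3b cover 9.01% of that of Vpreb1, and exons of 5730488B01Rik and Gm12462 cover 7.18% and 1.41% of that of Pax5. The other 6 genes had no such overlap.

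The receptor chain genes were read in every library, CD200-high and type H included. Ighm, the constant region gene of the first heavy chain a B cell makes, stood at 10.79, 10.54 and 10.41 log2 CPM in the libraries labelled sinusoidal, 9.06, 8.70 and 8.43 in arterial, 6.42, 6.60 and 5.80 in CD200-high and 5.64, 5.44 and 5.36 in type H libraries. None of the 4 populations overlapped for Ighm. It was lower in arterial than in the libraries labelled sinusoidal by 1.85 ± 0.22 log2 (3.60-fold, adjusted p = 0.000323). CD200-high was lower than arterial by 2.46 ± 0.22 (adjusted p = 0.000155) and type H by 3.25 ± 0.22 (adjusted p = 7.07e-06). The difference of CD200-high over type H, 0.79 ± 0.22 (1.73-fold), passed narrowly (adjusted p = 0.0393). That last call was lost when any 1 of CD200-high replicates 1 and 2, of the 3 type H libraries, of arterial replicate 2 or of the 3 libraries labelled sinusoidal was left out (adjusted p from 0.0513 to 0.121).

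Cd79a and Cd79b encode the paired signalling chains of the receptor. Cd79a stood at 10.12, 10.004 and 10.01 log2 CPM in the libraries labelled sinusoidal, 8.86, 8.01 and 7.69 in arterial, 5.22, 6.56 and 4.94 in CD200-high and 5.11, 2.26 and 3.27 in type H libraries. Cd79b stood at 9.94, 9.67 and 9.62, at 8.39, 7.22 and 7.33, at 2.43, 4.17 and 4.25 and at 4.90, 3.91 and 4.08 in the same order. Both genes had the arterial libraries between the others without overlap, while CD200-high and type H overlapped, with Cd79a averaging higher in CD200-high and Cd79b higher in type H. Neither of these 2 differences passed, at 2.02 ± 0.62 for Cd79a (adjusted p = 0.0538) and -0.68 ± 0.48 for Cd79b (adjusted p = 0.403). The Cd79a difference passed without type H replicate 1 (adjusted p = 0.00455), with a filter of 50 reads (0.0497), with log2(CPM + 1) (0.0402), at the same pan-endothelial median (0.00988) and with median-ratio scaling (0.0436). Cd79a fell by 4.47 ± 0.62 log2 in CD200-high and by 6.49 ± 0.62 in type H against the libraries labelled sinusoidal (adjusted p = 0.000262 and 1.33e-05). Cd79b fell by 6.13 ± 0.48 and by 5.45 ± 0.48 (adjusted p = 4.06e-06 and 6.76e-06). Against arterial libraries, CD200-high was lower by 2.62 ± 0.62 for Cd79a (adjusted p = 0.0177) and by 4.03 ± 0.48 for Cd79b (adjusted p = 0.000485). The Cd79a call was lost without CD200-high replicate 1 or 3 or arterial replicate 1 (adjusted p from 0.0536 to 0.075). Between arterial libraries and those labelled sinusoidal only Cd79b of the pair passed, at -2.10 ± 0.48 (adjusted p = 0.0155), and that call was lost without arterial replicate 2 or 3 or labelled sinusoidal replicate 1 (adjusted p from 0.0591 to 0.0713). Cd79a gave -1.85 ± 0.62 there (adjusted p = 0.0893), and passed without type H replicate 1 or 2 (adjusted p = 0.0231 and 0.0413).

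Ebf1, the first of the 2 transcription factors to act, reached 8.72, 8.64 and 8.29 log2 CPM in the libraries labelled sinusoidal, 7.40, 6.75 and 6.53 in arterial, 5.48, 5.58 and 5.42 in CD200-high and 3.01, 5.04 and 4.01 in type H libraries. The 4 populations did not overlap, with CD200-high above type H. Ebf1 was lower by 1.65 ± 0.42 log2 in arterial than in the libraries labelled sinusoidal (3.14-fold, adjusted p = 0.0261), by 3.06 ± 0.42 in CD200-high (8.31-fold, adjusted p = 0.000225) and by 4.53 ± 0.42 in type H (23.1-fold, adjusted p = 9.71e-06). The CD200-high level exceeded that of type H by 1.48 ± 0.42 (adjusted p = 0.0371) and was below that of arterial by 1.40 ± 0.42 (adjusted p = 0.0465). The last call was lost with the replicate block (adjusted p = 0.0598), and without any 1 of the 3 CD200-high, the 3 arterial or the 3 labelled sinusoidal libraries or type H replicate 3 (adjusted p from 0.0591 to 0.164). The call against type H was lost without any 1 of the 3 CD200-high libraries, type H replicate 1 or 3, arterial replicate 2 or any library labelled sinusoidal (adjusted p from 0.0517 to 0.0996), and the arterial call without arterial replicate 2 or 3 or labelled sinusoidal replicate 1 or 2 (adjusted p from 0.0871 to 0.11).

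Pax5, which keeps a cell committed to the B lineage, stood at 7.59, 7.41 and 7.53 log2 CPM in the libraries labelled sinusoidal and at 6.13, 4.91 and 3.33 in arterial libraries. It had 0, 22 and 90 reads in CD200-high, or -4.44, 0.64 and 3.74 log2 CPM, and 5, 7 and 7 reads in type H, or -1.82, -1.26 and -1.04. CD200-high replicate 3 lay above arterial replicate 3, so these 2 populations overlapped, the only such overlap between CD200-high or type H and the 2 higher populations among the 10 genes. Pax5 was lower by 7.53 ± 1.57 log2 in CD200-high (adjusted p = 0.00402) and by 8.89 ± 1.57 in type H (adjusted p = 0.00122) than in the libraries labelled sinusoidal, and by 6.17 ± 1.57 in type H than in arterial (adjusted p = 0.0162). That last call was lost without arterial replicate 1 (adjusted p = 0.0672). The difference between CD200-high and arterial, -4.81 ± 1.57, did not pass (adjusted p = 0.0678), and passed when CD200-high replicate 3 was left out (-6.69, adjusted p = 0.00791). Between arterial libraries and those labelled sinusoidal it was -2.72 ± 1.57 (adjusted p = 0.341). That difference passed when only these 2 populations were fitted (adjusted p = 0.0204) and with voom weights (0.00506).

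**Figure D2:**
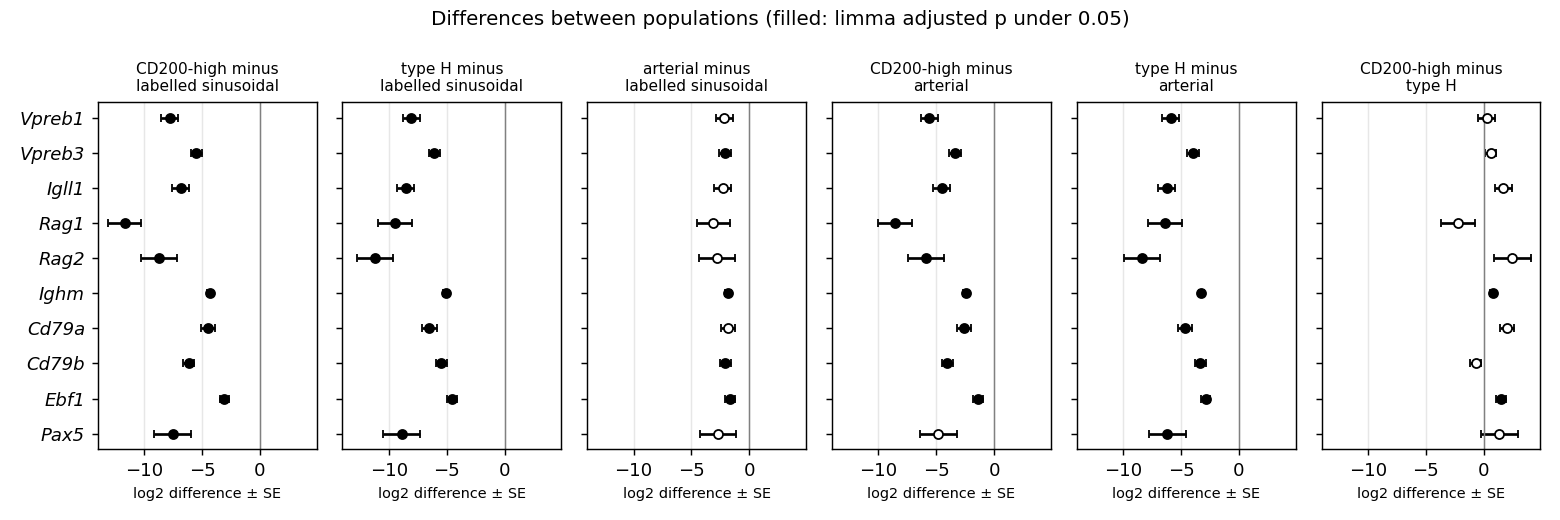
Log2 difference ± SE (horizontal axis) of each of the 10 genes in the 6 comparisons, one panel each, with filled points where limma's adjusted p was under 0.05. All points lie left of 0 except in the last panel, CD200-high minus type H, where Ebf1 and Ighm are the filled points.

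Ebf1 has 3 paralogs in the table, Ebf2, Ebf3 and Ebf4, of which Ebf4 did not pass the filter. Ebf2, known from stromal and bone-forming cells, had 0 reads in each library labelled sinusoidal, and Ebf3, known from reticular stroma, had 0, 0 and 35. Type H libraries had 0, 0 and 5 reads of Ebf2 and 73, 6 and 197 of Ebf3. In arterial libraries Ebf2 had 132, 72 and 147 reads and Ebf3 had 248, 638 and 607, so both averaged highest there. The arterial difference passed for Ebf2 (adjusted p = 0.00285) and Ebf3 (8.40 ± 1.70 log2, adjusted p = 0.00817), opposite in direction to Ebf1. Within the family the share of each gene thus differed by population: in the libraries labelled sinusoidal Ebf1 was nearly the only one read, whereas arterial and CD200-high libraries also held Ebf3, at 5.07 ± 1.08 and 4.10 ± 0.74 log2 CPM.

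**Figure D3:**
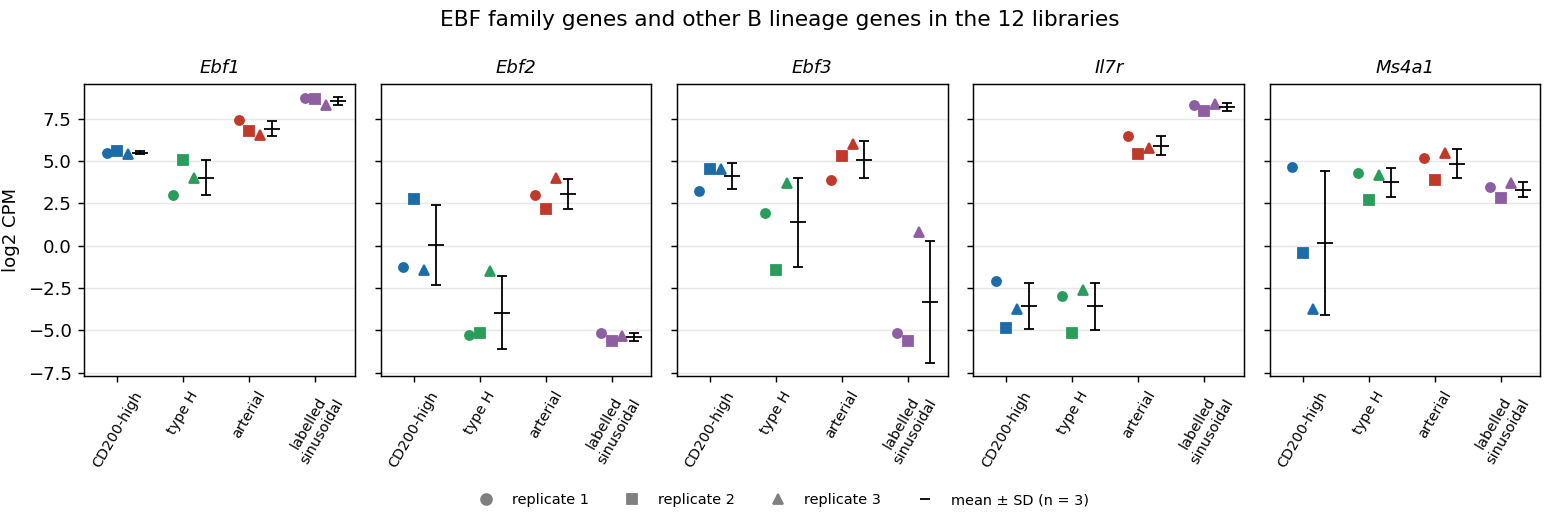
Levels in log2 CPM (vertical axis) of Ebf1, Ebf2, Ebf3, Il7r and Ms4a1 in the 12 libraries, with symbols for replicates and the black bar for the mean ± SD of 3 libraries. Ebf2 and Ebf3 are lowest in the libraries labelled sinusoidal, where Ebf1 and Il7r are highest, and Ms4a1 has no such peak.

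The fall from population to population was similar across the genes in one arterial library and uneven elsewhere. Relative to the mean of the libraries labelled sinusoidal, arterial replicate 1 lay between -1.15 (Ebf1) and -1.75 (Rag1) log2 in all 10 genes, an SD over the genes of 0.176. In arterial replicate 2 the range was -1.80 (Ebf1) to -4.89 (Rag1), an SD of 0.968, and in arterial replicate 3 it was -2.02 (Ebf1) to -4.18 (Pax5), an SD of 0.630. The SD over the genes was 2.25 to 3.12 in the CD200-high and type H libraries, where Rag1, Rag2 and Pax5 had so few reads that the added 0.5 read sets much of their offset. Over the other 7 genes it was 1.41 to 2.28 in these libraries and 0.135, 0.267 and 0.421 in arterial replicates 1, 2 and 3. Ebf1 had the smallest fall in 8 of these 9 libraries, and Rag1, Rag2 or Pax5, the genes with the fewest reads, the largest in 9 of 9.

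Arterial replicate 1 was the highest arterial library in 10 of 10 genes, while the lowest was replicate 3 in 7 and replicate 2 in 3. The share of listed reads taken by the 10 genes was 0.464% in arterial replicate 1, 0.252% in replicate 2 and 0.175% in replicate 3. The median SD between replicates over the 10 genes was 0.78 log2 in arterial libraries, where the median over all genes tested was 0.51, and 0.15 in the libraries labelled sinusoidal, where it was 0.41. It was 0.80 in CD200-high and 1.23 in type H, against 0.68 and 0.58 over all genes. Over the 12 libraries the log2 levels of the 45 pairs of these genes correlated with a Pearson's r of 0.699 (Rag2 and Pax5) to 0.981 (Igll1 and Ighm), with a median of 0.911. These correlations are a description, since the points share the 4 populations and their libraries.

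**Figure D4:**
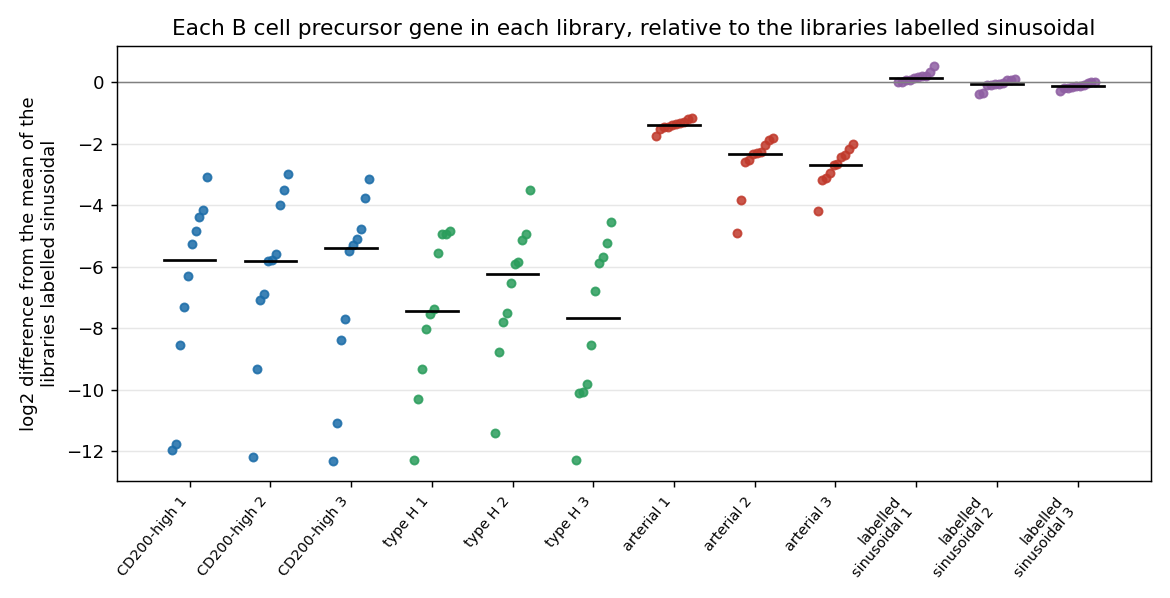
Log2 difference of each of the 10 genes from its mean in the libraries labelled sinusoidal (vertical axis) in each of the 12 libraries, with a black line at the median of the 10. The points of arterial replicate 1 lie close together around -1.37, and those of the CD200-high and type H libraries spread down to about -12.3, where libraries with 0 or 1 read make the offset a product of the added 0.5 read.

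Levels of different genes can be compared only per length. The length used was that of all annotated exons of a gene together in GENCODE M21. For Vpreb1 this is 1199 bases, where its spliced transcript has 766, so the order of genes with close values may depend on the length used. By this measure Vpreb3 was the most abundant of the set in the libraries labelled sinusoidal at 2203 ± 193 CPM per kb, rank 15 of the 17146 genes with a length. Vpreb1 followed at 1651 ± 151 (rank 23), Igll1 at 1452 ± 90.9 (rank 28), Ighm at 816 ± 113 (rank 47), Cd79a at 725 ± 32.1 (rank 52) and Cd79b at 602 ± 73.5 (rank 79). Rag2, Ebf1, Rag1 and Pax5 were lower, at 113 ± 26.1, 38.7 ± 5.91, 25.3 ± 8.96 and 20.7 ± 1.28 CPM per kb. In arterial libraries Vpreb3 and Vpreb1 ranked 78 and 117, whereas in type H they ranked 1656 and 5206 and in CD200-high 1293 and 5690. In CD200-high and type H the leading genes of the set per length were Vpreb3, at 50.4 ± 10.1 and 40.8 ± 29.3 CPM per kb, and Ighm, at 42.1 ± 11.3 and 23.8 ± 2.43.

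Other genes of the same stage followed the set in part. Of 15 genes of precursor surface and stage, CD200-high had 11 lower and 0 higher against arterial, and 8 were lower and 1, Cd93, higher in type H than in arterial. Of the same 15, 6 were lower and 0 higher in arterial than in the libraries labelled sinusoidal. Over all genes, 8.15%, 12.7% and 2.14% were lower in these comparisons, in that order. Il7r, the receptor for the cytokine interleukin 7 on which mouse precursors depend, stood at 8.19 ± 0.22 log2 CPM in the libraries labelled sinusoidal and 5.90 ± 0.54 in arterial and had 2 reads in all in CD200-high and 4 in type H. Dntt, which adds bases at the joined ends, stood at 8.74 ± 0.12, 7.0015 ± 0.91, 0.28 ± 0.68 and 2.09 ± 1.06 in the order labelled sinusoidal, arterial, CD200-high and type H. Ly6d, a marker of B-committed progenitors, ran 8.56 ± 0.15, 7.63 ± 0.18, 5.58 ± 0.07 and 5.10 ± 0.05 in that order. Cd93, the gene that moved the other way, is also known from endothelium.

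By the median over each list, receptor signalling genes and lineage transcription factors showed the same order with fewer calls, though single genes departed from it. Of 16 signalling genes, 9 were lower in CD200-high and 10 in type H than in arterial, and 3 were lower in arterial than in the libraries labelled sinusoidal (Cd37, Cd72 and Syk), with 0 higher in each. The shares of all genes that were lower are 8.15%, 12.7% and 2.14% in the same order. Syk, the kinase recruited by Cd79a and Cd79b, stood at 8.72 ± 0.02 log2 CPM in the libraries labelled sinusoidal, 7.59 ± 0.17 in arterial, 4.56 ± 0.24 in CD200-high and 4.68 ± 0.69 in type H. Of 19 other lineage factors, 2 were lower in arterial than in the libraries labelled sinusoidal, Sox4 and Spib, and 1 was higher, Id3, an inhibitor of E2A. Against arterial, 7 were lower and 1 higher in CD200-high, and 11 were lower and 1 higher in type H. Irf8 stood at 8.04, 7.55 and 8.03 log2 CPM in type H, above each arterial library (7.40, 6.63 and 7.21). Spib, a factor of B and plasmacytoid dendritic cells, stood at 9.33 ± 0.19, 7.50 ± 0.23, 4.25 ± 0.68 and 4.99 ± 0.83 in the order given for Dntt. Another list held 11 genes that take part in joining immunoglobulin segments, most of them used by all cells. CD200-high had 4 of them lower against arterial (Dntt, Hmgb1, Hmgb2 and Xrcc6) and type H had 3 lower, with 0 higher. Of all genes, 8.15% and 12.7% were lower there. Dntt is also counted among the genes of precursor surface and stage.

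Genes of later B cells were counted separately, first for arterial libraries against those labelled sinusoidal. Of 19 mature B cell genes, 0 passed there in limma, 3 had an unadjusted p under 0.05, and 5 passed with voom weights. Their median difference was 0.11 log2, against -2.14 over the 10 precursor genes and -0.02 over all genes tested. The 3 arterial libraries all lay below the 3 labelled sinusoidal in 7 of the 19 and above in 2, where 17.8% of all genes lay below. For CD200-high against the libraries labelled sinusoidal the median over the 10 was -6.48, also with Rag1 set at its bound, and -0.22 over all genes. Over the 19 mature B cell genes it was -2.94, with 10 lower and 2 higher, where 14.6% of all genes were lower. For type H the 19 had a median of -1.33, with 6 lower and 2 higher, where 14.6% of all genes were lower. Ms4a1, which encodes CD20 of mature B cells, stood at 4.84 ± 0.86 log2 CPM in arterial, 3.73 ± 0.88 in type H, 3.30 ± 0.45 in the libraries labelled sinusoidal and 0.15 ± 4.25 in CD200-high, and differed by 1.54 ± 1.57 between arterial and the libraries labelled sinusoidal (adjusted p = 0.632). Ighd, made together with Ighm in mature B cells, stood at 6.68 ± 0.38, 4.99 ± 0.27, 3.74 ± 0.58 and 1.07 ± 1.66 in the order given for Dntt. Light chain constant genes, which replace the surrogate light chain, summed to 489 to 1633 CPM in arterial and 681 to 999 in the libraries labelled sinusoidal, with 0 of 4 called by limma (1 at an unadjusted p under 0.05, 2 with voom weights), and to 107 to 137 in CD200-high and 73.8 to 174 in type H. The sum of 1633 was that of arterial replicate 2. Arterial replicates 1 and 3, at 623 and 489 CPM, lay below each library labelled sinusoidal. Of 11 plasma cell genes, 2 were lower in arterial than in the libraries labelled sinusoidal, Mzb1 and Slamf7, where 2.14% of all genes were. In CD200-high, 5 of the 11 were higher and 2 lower than in the libraries labelled sinusoidal, where 2407 of 17086 genes were higher and 14.6% lower. Jchain had 0 reads in every CD200-high library, and also in type H replicates 2 and 3, arterial replicates 1 and 3 and labelled sinusoidal replicate 3. Its highest values were 6.74 log2 CPM in arterial replicate 2 and 5.98 in labelled sinusoidal replicate 2.

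Genes of immunoglobulin variable segments were found by symbol only, and reads of a segment do not show whether its locus had been joined. The Ighv genes summed to 480 to 561 CPM in the libraries labelled sinusoidal, 145 to 611 in arterial (median 220), 31.3 to 40.7 in CD200-high and 14.5 to 29.7 in type H libraries. Of 90 Ighv genes tested, 72 were lower in type H and 60 in CD200-high than in the libraries labelled sinusoidal, 9 were lower in arterial, and 0 were higher in any of these. Of all genes, 14.6%, 14.6% and 2.14% were lower there, in the same order. The Igkv genes summed to 221 to 315 CPM in the libraries labelled sinusoidal and 156 to 826 in arterial (median 171), with 5 of 68 lower in arterial and 0 higher. Members of these families are alike in sequence, so single genes are uncertain.

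Markers of other cells moved with the precursor genes in some comparisons and against them in others. The summed level of 11 megakaryocyte and platelet genes was 3360 to 4657 CPM in the libraries labelled sinusoidal, 775 to 2068 in arterial, 549 to 992 in CD200-high and 56.9 to 93.4 in type H, and none of its genes was at 0 in every library of a population. Thbs1, which other cells also make, held 87.7 to 96.7% of the CD200-high sum. Over the other 10 genes the sums were 3159 to 4292 CPM in the libraries labelled sinusoidal, 583 to 1800 in arterial, 32.9 to 111 in CD200-high and 36.8 to 84.8 in type H, so that arterial libraries lay between the others without overlap, as for the precursor genes. Of the 11 genes, 8 were lower and 1, Thbs1, higher in CD200-high than in arterial, where 8.15% of all genes were lower. The sum of all 11 was highest among arterial libraries in replicate 1. The sum of 10 osteoblast genes was 103800 to 148700 CPM in CD200-high, 12890 to 14690 in arterial, 6672 to 13740 in the libraries labelled sinusoidal and 256 to 1202 in type H. Against type H, CD200-high had 10 of the 10 osteoblast genes called higher, where 6.66% of all genes were. Ebf1 and Ighm were called higher in the same comparison, and a link between these results was not tested. Of 9 reticular stroma genes, 8 were higher in arterial than in the libraries labelled sinusoidal, where 8.09% of all genes were. Their sums were 4869 to 10790 CPM in arterial, 353 to 759 in the libraries labelled sinusoidal, 1533 to 1997 in CD200-high and 995 to 2935 in type H. Summed levels of 15 neutrophil genes were highest in arterial libraries (22870 to 36830 CPM, against 6325 to 11330 in those labelled sinusoidal), and the same held for 12 erythroid and 11 macrophage genes. The 16 cell cycle genes summed to 2473 to 2790 CPM in the libraries labelled sinusoidal, 1605 to 2180 in arterial, 295 to 689 in CD200-high and 359 to 656 in type H. Arterial sums again lay between the others without overlap. Against the libraries labelled sinusoidal, 16 were lower in CD200-high and 15 in type H. Against arterial, 13 and 11 were lower, where 8.15% and 12.7% of all genes were. Between arterial and the libraries labelled sinusoidal 0 passed (limma, with 1 at an unadjusted p under 0.05 and 1 with voom weights). The 3 arterial libraries all lay below the 3 labelled sinusoidal in 9 of the 16, where 17.8% of all genes did. Ptprc, which encodes CD45, stood at 7.41 ± 0.23 log2 CPM in arterial, 6.55 ± 0.31 in the libraries labelled sinusoidal, 5.38 ± 0.65 in CD200-high and 3.98 ± 0.57 in type H. Its difference of 0.87 ± 0.36 between arterial and the libraries labelled sinusoidal did not pass (adjusted p = 0.177). The part of these cells, and of the CD45 gate, in the levels of the precursor genes was not tested.

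**Figure D5:**
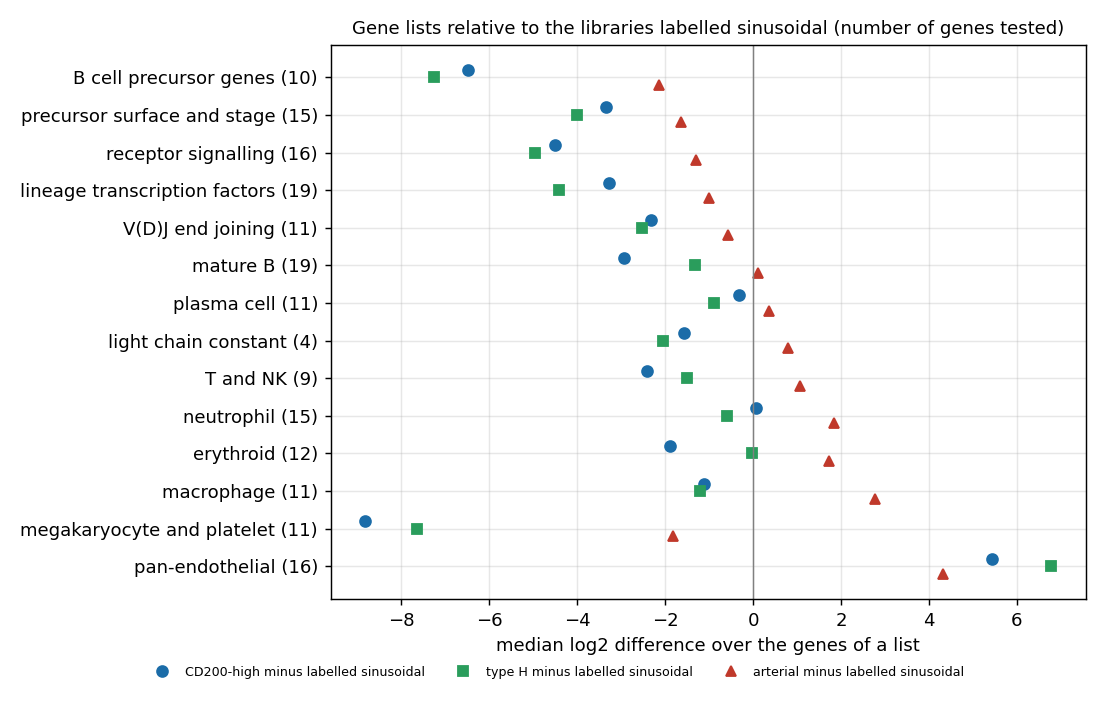
Median log2 difference over the genes of each list (horizontal axis) from the libraries labelled sinusoidal, for CD200-high (circles), type H (squares) and arterial libraries (triangles), with the number of genes tested in brackets. For the 10 B cell precursor genes the medians were -6.48, -7.27 and -2.14, the megakaryocyte list lies on the same side, and the pan-endothelial list lies on the other.

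Genes by which marrow vessels and stroma feed B cell precursors were not highest where the precursor genes were. Of 12 such niche genes, 6 were higher and 0 lower in arterial than in the libraries labelled sinusoidal, where 8.09% of all genes were higher, and 7 were higher and 1 lower in type H than in those, where 13.9% were higher. Cxcl12, which holds precursors in the marrow, stood at 12.54 ± 0.66 log2 CPM in arterial, 10.07 ± 0.92 in type H, 10.12 ± 0.30 in CD200-high and 8.63 ± 0.58 in the libraries labelled sinusoidal, and was 3.91 ± 0.45 higher in arterial than in the last (adjusted p = 0.000215). Vcam1, an adhesion gene, was highest in type H at 9.56 ± 0.28. Il7, the ligand of Il7r, stood at 3.40, 4.74 and 5.76 in arterial libraries and had 0 reads in 2 of 3 libraries labelled sinusoidal. Its difference did not pass (8.34 ± 2.50, adjusted p = 0.0578).

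The genes most like the precursor set across the 12 libraries were found by Pearson's r with the mean standardised level of the 9 genes other than Ebf1, among 8045 genes. They were Pls1 (r = 0.991), Jakmip1 (0.990), Ly6d (0.990), Stmn1 (0.989), Mzb1 (0.987), Hmga1b (0.985), Cenpa (0.985), Lgr5 (0.984), Cd226 (0.984) and Plekha2 (0.984). Pls1 stood at 5.68 ± 0.41 log2 CPM in the libraries labelled sinusoidal and 2.72 ± 1.53 in arterial, with 0 reads in CD200-high and type H, and Jakmip1 at 5.27 ± 0.12 and 1.57 ± 1.30, likewise with 0. For Ebf1 itself they were Sec11c (0.987), Prim1 (0.976), Nup210 (0.974), Chchd10 (0.972) and Dnajc9 (0.970).

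Set against the whole table, 4 of the 10 genes were called highest in the libraries labelled sinusoidal against each other population (Vpreb3, Ighm, Cd79b and Ebf1), as were 1.29% of all genes tested. In 9 of the 10, all but Pax5, both CD200-high and type H were called lower than both arterial libraries and those labelled sinusoidal, as in 3.08% of all genes. The same 9 had every library labelled sinusoidal above every arterial one, and every arterial one above every CD200-high and type H library, as had 3.18% of all genes. All 10 had the 3 arterial libraries below the 3 labelled sinusoidal, as had 17.8% of all genes. The 6 comparisons share libraries, so these counts are not independent of each other.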

How the data were processed

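RNA was measured by sequencing in 12 libraries, 3 in each of 4 sorted populations, grouped by the population in their titles. The authors deposited 1 table of 17362 genes with 1 column per library, in log2 units: log2 CPM, computed with 0.5 read added and an effective library size per column. Undoing this returned whole numbers of reads for 100% of the values (tolerance 0.01), which gave the reads and depths used. The submitters' processing notes name featureCounts, STAR, Trimmomatic, deepTools, SAMtools and R 4.3, with no settings, and a human genome build although the samples are mouse, so no gene coordinates are taken from them. How the authors scaled libraries is not given in the sources used here. With 0.5 read added, a fold change of a gene with few reads can be too small or too large.

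Differences were tested with limma 3.58.1 in R 4.3.3, with a mean-variance trend, on the deposited log2 values of all 12 libraries in 1 fit without a block, and p-values were adjusted by Benjamini-Hochberg over the genes tested, with a threshold of 0.05. After the filter, which asked for 10 or more reads (at the mean effective size, 15.9 M) in 3 or more libraries, 17086 genes were tested. The design had assumed values on a linear scale with a pseudocount of 1 CPM, which was run as an alternative. Other alternatives were the filter, 2 scalings, the libraries in the fit, the replicate block and leaving out each library. Voom weights and a median-ratio scaling were added after seeing the data. The script was tested on simulated data. The floor of a gene with 0 reads is 3 reads per library, which allows for counting error alone, as no molecular identifiers were read.

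Mouse numbers recur in the labels of each population, so same-numbered libraries were taken as paired in the fit with a block. Their deviations from the population means correlated at -0.046 to 0.086, median 0.018, over 18 pairs and 11351 genes. Replicates differed by more than counting error, with a chi-square of 54.5 to 128 per degree of freedom.

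The genes and lists were chosen with earlier results of these data known. All 10 genes are named in every comparison. From other lists the text takes counts and, by name, genes with the smallest adjusted p or, for short sets of calls, each one called, and Ms4a1, Il7, Il7r, Ptprc, Ly6a and Cdh5 were named for what they mark. Some named genes were thus chosen after their values were seen. 1 gene of the lists is not reported here and was left out of their counts. Sequences come from RefSeq (GRCm38.p6) promoters and GENCODE M21 transcripts, and exon lengths were found for 17146 genes.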

Additional observations from a re-analysis of the deposited data

How the results depend on the processing

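Over all alternatives, 1156 of the values of single precursor genes kept their direction and side of the threshold, 40 gained a call, 59 lost one and 5 turned. The calls of type H and CD200-high against the libraries labelled sinusoidal held for all 10 genes under every alternative run. Shifting libraries to the same pan-endothelial median moved the median of all genes to -1.58, 0.81, -5.65, -6.49, -2.41 and -4.09 log2 (CD200-high minus arterial, minus type H and minus labelled sinusoidal, type H minus labelled sinusoidal and minus arterial, arterial minus labelled sinusoidal). It called 7638, 3290, 14954, 15696, 12001 and 13183 genes, where the main values were 2204, 2223, 4902, 4882, 3536 and 1748, with 128, 2889, 118, 97, 211 and 177 of them higher, and 4 precursor genes between CD200-high and type H and 10 between arterial and those labelled sinusoidal. By construction it makes genes other than endothelial ones lower where endothelial genes are high. With the same listed total, medians moved to -0.41, -0.18, -0.53, -0.38, -0.25 and -0.14, 568 of 2305 genes called in the first and 1997 of 5626 in the third were higher in CD200-high, against 811 and 2407, and 0 precursor genes passed between CD200-high and type H (3 at an unadjusted p under 0.05). In that comparison and in arterial against labelled sinusoidal, fitting only the 2 populations gave 1337 and 2829 genes and 0 and 10 precursor genes, and voom 0 (2 at an unadjusted p under 0.05) and 10 precursor genes. With log2(CPM + 1), 7 precursor genes passed in the last. The replicate block gave 8, 3, 10, 10, 10 and 5 precursor genes in the order above. It lost Ebf1 in the first and gained Igll1 in the second and the last, and changed no other call of these genes.

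Leaving out 1 library gave 1353 to 2458, 1689 to 2328, 3499 to 5223, 3836 to 5113, 2581 to 3726 and 1019 to 1870 genes, and 6 to 9, 0 to 2, 10 to 10, 10 to 10, 9 to 10 and 1 to 6 precursor genes. The fewest genes in the first came without arterial replicate 1 (1353) or 3 (1397), and in the last without arterial replicate 2 (1082) or 3 (1019) or labelled sinusoidal replicate 2 (1134). Without arterial replicate 2 or 3 or labelled sinusoidal replicate 1, 1 precursor gene, Ighm, passed in the last, and 2 without labelled sinusoidal replicate 2. Differences that turned were all between CD200-high and type H, and none of the turned values passed. They were Vpreb1 without CD200-high replicate 2 (-0.074) or type H replicate 3 (-0.740, highest of the left-out values 1.026), Vpreb3 without type H replicate 1 (-0.062, highest 1.150), Pax5 without CD200-high replicate 3 (-0.518, highest 3.569, which passed) and Cd79b at the same pan-endothelial median (0.180). The causes were not tested. The edgeR and DESeq2 fits planned were not run, because the deposited unit is log2. Depth limits Rag1, Rag2 and Pax5 in CD200-high and type H, where 1 library can hold most reads.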
